A study of Homo sapiens with 18 samples.

Results

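NB4 is an established cell line from acute promyelocytic leukemia. The comparison described here asked whether NB4 cells titled as a knockout of transglutaminase 2 (TG2, gene TGM2) respond to all-trans retinoic acid (ATRA) differently from wild-type cells, with both treatment times pooled. It used 18 of the 18 arrays of the study: 3 biological replicates each of untreated wild-type cells, untreated TG2 knockout cells, and both genotypes after 48 h and after 72 h in 1 µM ATRA. The response of a genotype is the mean of its 6 ATRA arrays, with both times weighted equally, minus the mean of its 3 untreated arrays, on the log2 scale. The pooled difference is the knockout response minus the wild-type response, so that 0 means an equal fold change in both genotypes. Titles name the altered line a TG2 knockout, but KD stands in the short codes given with its samples. The labels do not say how TG2 was removed or whether the line is 1 clone, so the genotype cannot be told apart from other differences between the 2 lines. Nothing beyond the words biological replicate says that replicates came from separate cultures, so each p-value measures the spread between these arrays.

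NB4 cells carry the PML-RARA fusion, which holds promyelocytes at an immature stage, and pharmacological ATRA releases this block and drives them toward neutrophil-like cells. Retinoic acid acts through nuclear receptors that bind response elements near target genes, and TGM2 is one of the genes it induces most strongly in these cells. TG2 crosslinks proteins in a calcium-dependent way, also binds GTP, and on the cell surface acts as a partner of integrins. ATRA is also known to switch on interferon-stimulated genes in promyelocytic leukemia cells.

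Whole-transcript Affymetrix arrays gave 33297 probe sets, of which 19460 are annotated to exactly 1 gene. Arrays had medians of 6.12 to 6.26 on the log2 scale. The number of arrays, not a read depth, limits the precision. Untreated arrays lay close together, with a median SD between replicates of 0.08 for the wild-type line and 0.10 for the knockout line. The same SD was 0.215 to 0.243 for the groups given ATRA. On the first principal component, which separates untreated from treated cells, 4 ATRA arrays lay nearer to the untreated ones than the other 8: wild-type 48 h replicate 1 at 17.5, knockout 48 h replicates 1 and 3 at 31.2 and 31.1, and knockout 72 h replicate 2 at 30.0, against 46.3 to 56.6. Of 8 measured promyelocyte markers, 4 lay above the 90th percentile of untreated signals (MPO, PRTN3, CTSG and MS4A3), while KIT lay at the 18.8th. None of 7 monocyte and macrophage markers lay above the 53.1st percentile. Markers of other types also lay above the 90th: PRG2 of eosinophils (95.9th), NKG7 of lymphocytes (94th) and MMP9 of neutrophils (90.8th). The log2 signals of the 7 neutrophil markers summed to 46.5 to 47.1 in untreated wild-type arrays and 47.0 to 47.9 in untreated knockout arrays. Under ATRA they summed to 50.5 to 53.7 in wild-type and 48.2 to 51.3 in knockout arrays, and those of the 7 monocyte and macrophage markers to 39.3 to 42.6 and 38.5 to 39.8. The neutrophil markers did not move together. MMP9 fell between untreated and 48 h, from 10.02 to 6.81 in wild-type and from 9.75 to 6.59 in knockout means. CSF3R, ITGAM, FPR1 and CXCR2 rose in both lines. No marker was at 0, and the part of the cells' make-up in the results below was not tested. In bulk RNA, fewer cells of a type and less RNA per cell cannot be told apart.

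Both genotypes answered ATRA with a very large change of expression, and the 2 answers were close. The response was called, meaning an adjusted p under 0.05 in limma with the Benjamini-Hochberg method, at 16128 probe sets in wild-type cells (48.4%) and at 16215 in knockout cells (48.7%). The pooled difference between them was called at 1 of 33297 probe sets (0.003%), higher in the knockout, and that probe set has no gene in the annotation. No gene was called. At an unadjusted p under 0.05, 1018 probe sets passed (3.06%), 525 with a higher (1.58%) and 493 with a lower (1.48%) knockout response. The median pooled difference over all probe sets was 0.02, with quartiles of -0.11 and 0.16. For probe sets of 1 gene, the 95% interval of the pooled difference reached a median of 0.43 to either side, a factor of 1.35, and for 18370 of 19460 (94.4%) the whole interval lay within a 2-fold difference. The estimated difference itself was 2-fold or more at 24 of these 19460 probe sets. Intervals were wider for the 4582 probe sets whose response averaged over genotypes was called and at least 2-fold. Their median reach was 0.605, a factor of 1.52, and 2946 (64.3%) had the whole interval within a 2-fold difference. The estimate was 2-fold or more at 115 of them (2.51%). These intervals, from 3 arrays a group, hold for 1 probe set at a time, without adjustment. A call after adjustment needed a larger difference relative to its error, so differences outside these intervals could also go uncalled. TGM2, at -1.19 with an interval of -1.67 to -0.70, was not called. The 1 call depended on the fit: letting each group have its own spread gave 9 called probe sets, 5 of them single genes (TGM2, LGALS3BP, RAB27B, RPF2 and POR).

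**Figure D1:**
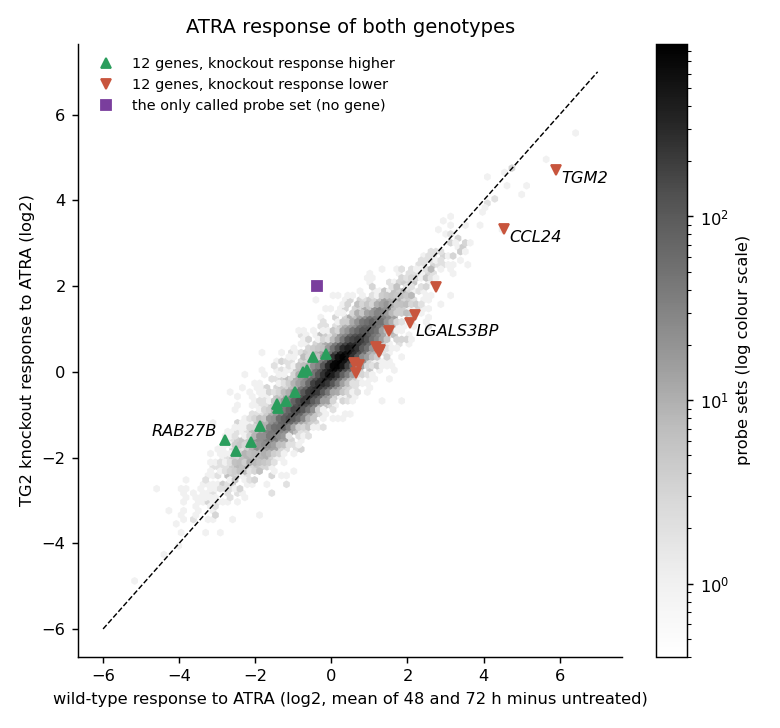
Response of each probe set in wild-type cells (horizontal axis) and in TG2 knockout cells (vertical axis), both as log2 change from untreated with 48 and 72 h pooled. Grey hexagons count probe sets on a log colour scale, triangles mark the 24 genes chosen for description, and the dashed line marks equal responses. Most of the 33297 probe sets lie along the line. The square is the only called probe set, with a response of -0.38 in wild-type and 1.99 in knockout cells.

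TGM2 itself was low and alike in both lines before treatment, and ATRA raised it strongly in both, with the smaller rise in the knockout arrays. In untreated wild-type arrays its log2 signal was 6.40, 6.27 and 6.61, and in untreated knockout arrays 6.30, 6.51 and 6.36. After 48 h the wild-type arrays read 12.34, 12.06 and 12.40 and the knockout arrays 11.01, 10.56 and 11.29. After 72 h they read 12.54, 12.19 and 12.39 against 11.61, 10.87 and 11.25. The untreated groups overlapped, and under ATRA every knockout array lay below every wild-type array. The response was 5.89 in wild-type cells, a 59.4-fold rise, and 4.71 in knockout cells, a 26.1-fold rise, and both were called. The pooled difference was -1.19 ± 0.23 (SE), so that the knockout fold was 44.0% of the wild-type fold (95% interval 31.3 to 61.8%). Its adjusted p over all probe sets was 0.606 in limma, so it was not called, and its unadjusted p was 9.94e-05. An exact permutation test that exchanged genotypes within each time (8000 arrangements, two-sided) gave p = 0.004, where the smallest possible is 0.00025, and its null is no genotype effect at any time. The difference was -1.28 at 48 h and -1.09 at 72 h, which share the untreated arrays. It passed in limma with a spread per group (adjusted p = 0.0415) and without the 4 ATRA arrays nearest the untreated ones (adjusted p = 0.0447). The array therefore detected TGM2 RNA in the knockout cells. A transcript can remain after the protein is lost, and where the probes lie relative to the altered part of the gene is not known here. None of the other 8 measured transglutaminase genes had an unadjusted p under 0.05. The lowest of them, TGM5, an epidermal transglutaminase, was at -0.34, and TGM4, the prostate enzyme, was the highest at 0.28.

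**Figure D2:**
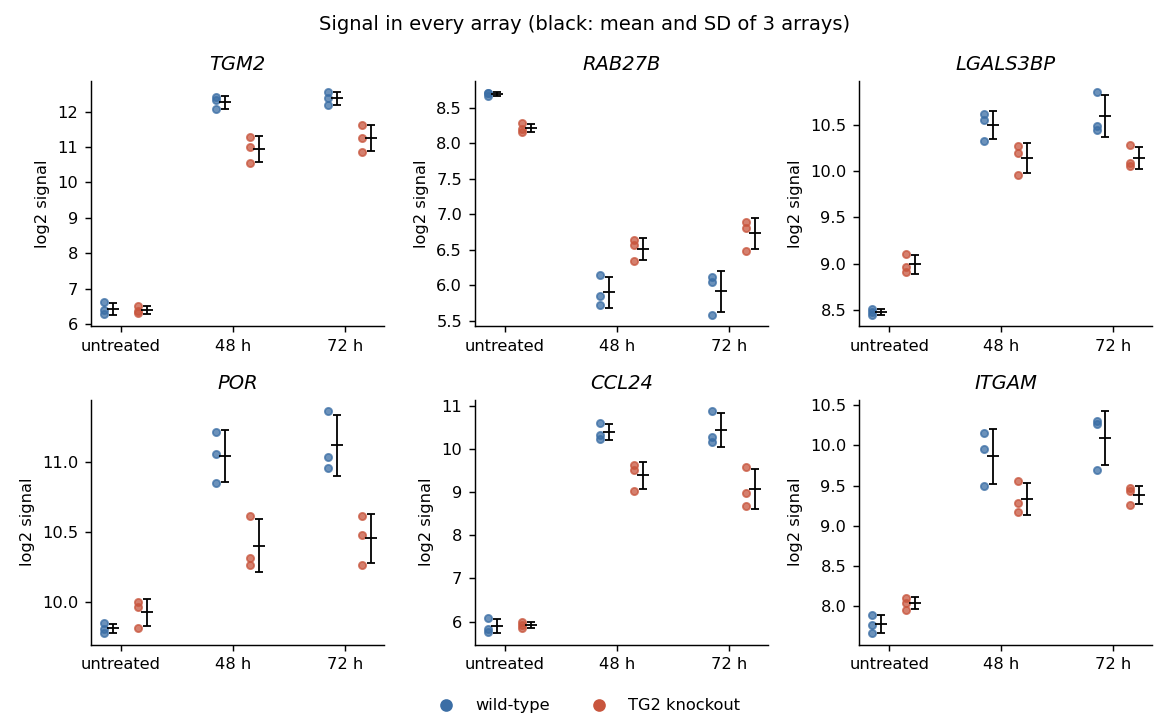
Log2 signal in every array for 6 of the genes described, untreated and after 48 and 72 h of ATRA. Points are arrays (blue, wild-type; red, TG2 knockout) and black bars give the mean and SD of 3 arrays. Vertical axes differ between panels and do not start at 0. For TGM2, RAB27B, LGALS3BP, POR and CCL24 the genotypes do not overlap under ATRA. The arrays of RAB27B and LGALS3BP also stand apart before treatment, in the opposite direction, where neither difference was called.

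Interferon-stimulated genes, which encode antiviral proteins made in answer to interferon, had low pooled differences as a group, with the knockout response mostly the smaller one. Of 40 measured genes of a 42-gene list, 38 had a pooled difference below 0, against 45.1% of all probe sets, and their median was -0.61, against 0.02. None was called, and 10 of the 40 had an unadjusted p under 0.05, all lower (1.48% of all probe sets did so in that direction). The median response of the list was 0.95 in wild-type cells, where 30 members were called higher (25.8% of all probe sets were), and 0.44 in knockout cells, where 17 were (26.9%). The 2-5A synthetases, which sense viral RNA, lay low in the list: OAS1 had a pooled difference of -1.42 ± 0.56 (SE), OAS3 of -1.27 ± 0.49 and OAS2 of -1.04 ± 0.40. IFIT1, which binds foreign RNA caps, was at -1.35 ± 0.62, and PARP9 and PARP14, both ADP-ribosyltransferase family members, were at -1.04 and -0.87. ISG15, a ubiquitin-like modifier, and MX1, an antiviral GTPase, are members of the same list at -0.04 and -0.11, and ISG20 and CMPK2 lay just above 0.

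The arrays did not divide cleanly by genotype for this list. The median response over its 40 genes was 0.55, 0.48 and 1.29 in the wild-type arrays at 48 h and 1.45, 0.43 and 1.52 at 72 h. In the knockout arrays it was 0.23, 0.41 and 0.54 at 48 h and 0.69, 0.30 and 0.50 at 72 h. The 3 wild-type arrays above 1 stood apart from the other 3, which overlapped the knockout arrays. OAS2 showed the same in single values: the wild-type arrays read 5.31, 5.37 and 6.70 at 48 h and 7.03, 5.77 and 7.01 at 72 h. The knockout arrays read 5.0, 5.35 and 5.07 and then 5.30, 5.17 and 5.26, close to the untreated arrays of both lines at 4.84 to 4.99. The list median stayed between -0.76 and -0.50 over 33 other ways of processing or choosing arrays.

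LGALS3BP, IFI6 and BST2 were the 3 members of the list whose array responses did not overlap between genotypes, with all 6 knockout arrays below all 6 wild-type arrays (0.679% of all probe sets did so). LGALS3BP, a secreted glycoprotein that binds galectin-3, had the smallest unadjusted p of the lower genes (1.36e-05, adjusted p = 0.151 in limma). Its log2 signal was 8.48, 8.45 and 8.51 in untreated wild-type arrays and 9.11, 8.97 and 8.91 in untreated knockout arrays. Under ATRA the wild-type arrays read 10.61, 10.32 and 10.55 at 48 h and 10.85, 10.44 and 10.49 at 72 h. The knockout arrays read 10.19, 9.96 and 10.27 and then 10.09, 10.28 and 10.05. Knockout arrays thus started above wild-type and ended below, and the pooled difference of -0.92 ± 0.15 (SE) holds a part of each. The knockout stood at 0.52 relative to wild-type when untreated and at -0.40 under ATRA, and neither difference was called. The response was 2.06 in wild-type and 1.14 in knockout cells, both called. IFI6, a mitochondrial interferon-induced protein, was at -0.85 ± 0.34, and BST2 (tetherin), which holds budding viruses on the cell, at -0.55 ± 0.22.

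The promoters of these 3 genes are shown because each holds, in the 250 bases before the annotated start, the core of the interferon-stimulated response element, spelled here as GAAA, then any 2 bases, then GAAA again, searched on both strands with overlapping matches kept. Capitals mark the matches. Sequences are RefSeq's for GRCh38.p14, written 5′ to 3′ on the gene's strand: LGALS3BP at chr17:78979924-78980173 on the minus strand with 1 match, IFI6 at chr1:27672193-27672442 on the minus strand with 3, and BST2 at chr19:17405631-17405880 on the minus strand with 2 that overlap.
LGALS3BP: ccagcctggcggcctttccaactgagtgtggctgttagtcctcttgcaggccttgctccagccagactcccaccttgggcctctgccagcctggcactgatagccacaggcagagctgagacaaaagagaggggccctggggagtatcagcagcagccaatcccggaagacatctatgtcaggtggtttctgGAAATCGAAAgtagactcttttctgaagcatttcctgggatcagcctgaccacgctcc
IFI6: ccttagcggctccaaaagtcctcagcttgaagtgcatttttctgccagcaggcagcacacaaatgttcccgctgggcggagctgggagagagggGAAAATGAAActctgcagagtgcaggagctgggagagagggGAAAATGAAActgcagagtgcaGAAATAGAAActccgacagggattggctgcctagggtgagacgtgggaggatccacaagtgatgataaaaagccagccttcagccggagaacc
BST2: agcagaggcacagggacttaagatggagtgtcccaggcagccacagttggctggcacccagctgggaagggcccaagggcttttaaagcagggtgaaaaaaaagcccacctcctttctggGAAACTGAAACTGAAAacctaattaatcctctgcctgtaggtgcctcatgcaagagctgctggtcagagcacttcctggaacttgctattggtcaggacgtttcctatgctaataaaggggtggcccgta

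The motif occurred in 1061 of 35116 promoters of the same length (3.02%) and in 19 of the 33 promoters matched for the interferon list (57.6%). The median pooled difference was -0.62 for members with it and -0.53 for members without it, so its presence did not divide the list. A match describes letters in this window and is not evidence that a factor bound there.

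The 12 single-gene probe sets of smallest unadjusted p in each direction, 1 a gene, were taken for description, 24 genes in all. Symbols that mark unnamed genes, noncoding RNAs, ribosomal proteins, mitochondrial genes and immunoglobulin or T cell receptor segments were passed over. None of the 24 was called (smallest adjusted p = 0.151 in limma). For 23 of the 24 the knockout response was the smaller one in size, and PITPNB, a phosphatidylinositol transfer protein, was the exception, at -0.13 in wild-type and 0.42 in knockout cells. The wild-type response was called for 23 (48.4% of all probe sets were) and the knockout response for 19 (48.7%). These counts reuse the responses by which the genes were chosen, so they support nothing. Among the responsive probe sets described below, the knockout response was the smaller one at 60.8%. The next counts are descriptions that the choice by small p of the pooled difference favours, and they also support nothing, since that difference is the one under ATRA minus the one before treatment. In 23 of the 24 the array responses of the genotypes did not overlap (1.26% of all probe sets did so, 0.58% with the knockout higher). The untreated difference ran opposite to the pooled difference in 20 of the 24, and in 8 it had an unadjusted p under 0.05 (1.15% of all probe sets did). Under ATRA alone, the knockout-minus-wild-type difference was called for 15 of them (0.369% of all probe sets were).

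Of the 12 genes with a lower knockout response, ITGAM encodes CD11b, the integrin chain that marks maturing myeloid cells. Its log2 signal under ATRA was 9.95, 9.49 and 10.16 in wild-type arrays at 48 h and 10.31, 9.70 and 10.27 at 72 h. In knockout arrays it was 9.28, 9.17 and 9.56 and then 9.47, 9.26 and 9.43. These levels overlapped in 1 place, the lowest wild-type array at 9.49 and the highest knockout array at 9.56, but measured from each line's untreated mean the responses did not. ITGAM rose 4.63-fold in wild-type and 2.52-fold in knockout cells, a pooled difference of -0.88 ± 0.21 (SE). HK3, the hexokinase of myeloid cells, rose by 2.76 and 1.97, a difference of -0.79 ± 0.20. POR, the reductase that passes electrons to cytochrome P450 enzymes, rose by 1.27 and 0.50. POR levels under ATRA ran from 10.85 to 11.37 in wild-type arrays and from 10.27 to 10.62 in knockout arrays, without overlap, from untreated levels of 9.78 to 9.85 and 9.82 to 10.0.

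CCL24 (eotaxin-2), which attracts eosinophils, had the lowest pooled difference of the 12 lower genes, -1.22 ± 0.28 (SE), and was among the strongly induced genes. It started at 5.76, 5.83 and 6.07 in wild-type and 5.92, 6.0 and 5.84 in knockout arrays. It reached 10.62, 10.34 and 10.25 in wild-type arrays at 48 h and 10.90, 10.28 and 10.17 at 72 h, against 9.64, 9.52 and 9.04 and then 8.99, 9.59 and 8.68 in knockout arrays. Every knockout array under ATRA was below every wild-type array. The rise was 23.3-fold in wild-type and 10.0-fold in knockout cells. The other lower genes had smaller responses and differences between -0.80 and -0.41: BTN3A3 (-0.80), a butyrophilin; GHRL (-0.66), the ghrelin precursor; RHBDD2 (-0.58); NINJ2 (-0.56), an adhesion protein; STK10 (-0.55), a serine/threonine kinase; and FLOT2 (-0.41), a lipid raft protein. GHRL rose in wild-type cells by 0.64 (called) and was at -0.03 in knockout cells (not called).

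Genes with a higher knockout response were mostly genes that ATRA lowered, with the smaller fall in the knockout. RAB27B, a small GTPase of granule and vesicle secretion, had the smallest unadjusted p of them (1.12e-05, adjusted p = 0.151 in limma). It read 8.71, 8.70 and 8.66 in untreated wild-type arrays and 8.16, 8.20 and 8.28 in untreated knockout arrays. Under ATRA it read 6.14, 5.84 and 5.72 and then 6.12, 5.58 and 6.04 in wild-type arrays, and 6.63, 6.56 and 6.34 and then 6.89, 6.81 and 6.48 in knockout arrays. Knockout arrays were therefore the lower ones before treatment and the higher ones after it, without overlap at either stage. The difference before treatment (-0.48) was not called. RAB27B fell by 2.78 in wild-type cells and fell by 1.59 in knockout cells, a pooled difference of 1.19 ± 0.19 (SE).

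RPF2, an assembly factor of the large ribosomal subunit, fell by 0.63 in wild-type cells, while its knockout response of 0.04 was not called. Its 2 probe sets gave pooled differences of 0.67 and 0.64. TAF4B, a subunit of the general transcription factor TFIID, fell by 2.51 in wild-type cells and fell by 1.84 in knockout cells. UBXN8, a protein of the endoplasmic reticulum, had responses of -2.10 and -1.64, and KCNQ5, a potassium channel, of -1.89 and -1.26 (pooled difference 0.63). LAMC1, a laminin chain, differed under ATRA and not before it: untreated arrays of both lines lay between 8.91 and 9.18, and under ATRA wild-type arrays lay between 7.81 and 8.21 and knockout arrays between 8.45 and 8.81. DRG1, a GTP-binding protein, and MAPK9, the kinase JNK2, showed the reverse in their estimates. Their untreated differences were not called (unadjusted p = 0.00212 and 0.00252 in limma), and the choice of genes favours such differences. DRG1 had a pooled difference of 0.68, made of a knockout-minus-wild-type difference of -0.52 untreated and 0.16 under ATRA. For MAPK9 the pooled difference was 0.73, from -0.62 untreated and 0.11 under ATRA. SLCO3A1, an organic anion transporter, was lower in the knockout throughout, at -1.16 untreated and -0.65 under ATRA relative to wild-type, and its pooled difference of 0.52 is the narrowing of that gap. CFAP97 (0.56) and RIBC2 (0.85) completed the 12.

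The only called difference belonged to probe set 7958377, which has no gene in the annotation and a dim mean signal, at the 3.33rd percentile of all probe sets. In wild-type arrays it read 2.80, 2.46 and 2.73 untreated, 2.17, 1.94 and 1.81 at 48 h, and 2.85, 2.23 and 2.70 at 72 h. In knockout arrays it read 2.03, 1.80 and 1.66 untreated, 4.20, 3.66 and 4.18 at 48 h, and 3.48, 3.69 and 3.73 at 72 h. The signal rose in the knockout (1.99, called) and not in wild-type cells (-0.38, not called). The pooled difference was 2.37 ± 0.27 (SE), with an adjusted p of 0.00478 in limma. The limma fit also called it at 48 h (2.87, adjusted p = 0.00251) and not at 72 h (1.87, adjusted p = 0.253). Without wild-type untreated replicate 1 it was at 2.31 with an adjusted p of 0.0506 in limma. The call was thus narrowly lost, while the estimate changed little. It was also lost without replicate 1, 2 or 3 of every group.

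Over the whole response, the estimated knockout change was more often the smaller one. Responsive probe sets were those whose response, averaged over the genotypes, was called (63.9% of all probe sets were) and at least 2-fold, 4582 in all. Of these, 2788 (60.8%) had a smaller response in the knockout, 1774 a larger one and 20 an equal one, and the median knockout fold was 94.9% of the wild-type fold. None had opposite signs in the 2 genotypes, which the choice by a large average response nearly fixes in advance. Of 2801 falling probe sets 65.8% were smaller in the knockout, with a median of 93.1% of the wild-type fold, while of 1781 rising ones 53.1% were smaller, with a median of 98.3%. The share was higher for larger responses in both directions. Of 49 probe sets that rose at least 8-fold, 40 (81.6%) were smaller in the knockout, with a median fold of 82.1% of wild-type, and of 47 that fell at least 8-fold, 35 (74.5%) were, with a median of 81.7%. At an unadjusted p under 0.05, 207 of the 4582 were smaller and 36 larger in the knockout (3.06% of all probe sets passed, in either direction).

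These probe sets share arrays, and the share depended on which arrays were used. Each ATRA array was set against the average response: the slope, 1 where an array shows exactly the average response, was 0.86, 1.05 and 1.12 in wild-type arrays at 48 h and 1.05, 1.05 and 1.09 at 72 h. In knockout arrays it was 0.90, 1.05 and 0.92 at 48 h and 1.00, 0.91 and 1.00 at 72 h. The 4 arrays with the lowest slopes were the 4 nearest to the untreated ones, 1 wild-type and 3 knockout arrays. Without them the share with a smaller knockout response was 48.7% in place of 60.8%. With 48 h arrays alone it was 54.5%, with 72 h arrays alone 61.3%. On the first principal component the pooled difference was -7.68, with p = 0.353 in the exact permutation test (two-sided, genotypes exchanged within time), so the overall position along the ATRA response was not distinguished between genotypes.

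**Figure D3:**
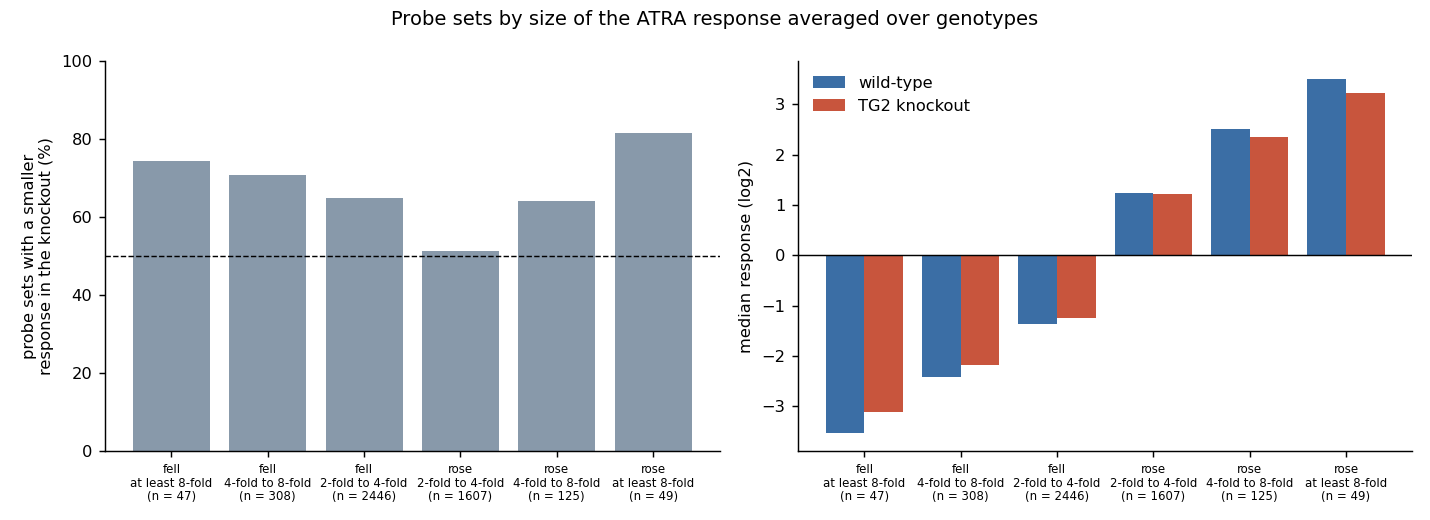
Left, percent of responsive probe sets whose response was smaller in the TG2 knockout, by direction and size of the response averaged over the genotypes, with a dashed line at 50%. Right, median response of each class in wild-type (blue) and knockout (red) cells on the log2 scale. The share is 81.6% among probe sets that rose at least 8-fold and 51.4% among those that rose 2-fold to 4-fold.

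Across 26 gene lists drawn up for this tissue and treatment, with 492 measured genes, no member was called (0.003% of all probe sets were). At an unadjusted p under 0.05, 37 of the 492 were lower (1.48% of all probe sets) and 7 higher (1.58%) in the knockout, and the median was -0.08. The list median was below 0 for 20 lists and above 0 for 6. Of all probe sets, 45.1% had a pooled difference below 0 and 54.5% above 0. Over the 33 alternatives 12 list medians kept their sign, and the other 14, with medians between -0.14 and 0.08, changed it under at least 1 alternative.

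Receptors lay on the low side. Of 23 chemokine and cytokine receptors, 20 were below 0 (45.1% of all probe sets were), with a median of -0.27. An unadjusted p under 0.05 was reached by 5, all lower (1.48% of all probe sets did so). These were CX3CR1, the fractalkine receptor (-1.06 ± 0.45, SE), IL6R (-0.63), CSF1R, the macrophage growth factor receptor (-0.60), CCR2 (-0.60) and TNFRSF1A, the main TNF receptor (-0.32). The median response of the 23 was 0.39 in wild-type and -0.01 in knockout cells. The array medians were 0.12 to 0.60 in wild-type and -0.18 to 0.25 in knockout arrays, which overlap. Of 25 neutrophil receptors, 19 were below 0, against 45.1% of all probe sets (median -0.20). Beside ITGAM these included CSF3R, the G-CSF receptor (-0.66), ITGAX, the CD11c chain (-0.71), and CXCR2, the interleukin-8 receptor. CXCR2 read 7.81, 7.53 and 7.53 in wild-type arrays at 48 h against 7.15, 6.73 and 6.90 in knockout arrays, and 7.58, 7.36 and 7.34 against 7.15, 7.38 and 7.21 at 72 h. The genotypes were thus apart at 48 h and overlapped at 72 h, and the pooled difference was -0.65 ± 0.16 (SE). MNDA, a nuclear antigen of myeloid cells, went the other way at 0.54.

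Retinoid target genes, which carry or are held to carry retinoic acid response elements, had 18 of 23 measured members below 0. Of all probe sets 45.1% were, and the list median was -0.25. Their median response was 1.25 in wild-type and 1.11 in knockout cells, and 18 and 17 of them were called higher (25.8% and 26.9% of all probe sets). TNFAIP2 was at -0.50 ± 0.14 (SE) and CYP26A1, the enzyme that degrades retinoic acid, at -0.49 ± 0.15. They were the 2 members with an unadjusted p under 0.05 (1.48% of all probe sets were lower at this p). Both rose in each genotype, TNFAIP2 6.22-fold and 4.40-fold and CYP26A1 2.38-fold and 1.69-fold. The receptors and metabolic enzymes of retinoids had a median of -0.01, with PPARD, a nuclear receptor, at -0.38. A direct repeat of GNTCA with any 6 bases between its copies, searched on both strands, was found in 2 of 18 matched promoters of retinoid targets (11.1%, RARB and STRA6) and in 205 of 35116 promoters (0.584%).

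Integrin and adhesion genes gave the most even separation of arrays, picked out of the 26 lists by these values. Whether it relates to TG2 was not tested. Of 22 measured members 20 were below 0 (45.1% of all probe sets were), with a median of -0.18. The median response of the list was 0.32, 0.19 and 0.26 in wild-type arrays at 48 h and 0.25, 0.21 and 0.26 at 72 h. In knockout arrays it was 0.11, 0.05 and 0.07 at 48 h and 0.12, 0.10 and 0.07 at 72 h. All 6 knockout arrays lay below all 6 wild-type arrays, although the sizes are small and the 6 arrays of a genotype share 1 untreated mean. PXN (paxillin), an adaptor of focal adhesions, was at -0.62 ± 0.22 (SE), and ILK, the integrin-linked kinase, at -0.30. PXN rose 4.62-fold in wild-type and 3.00-fold in knockout cells.

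**Figure D4:**
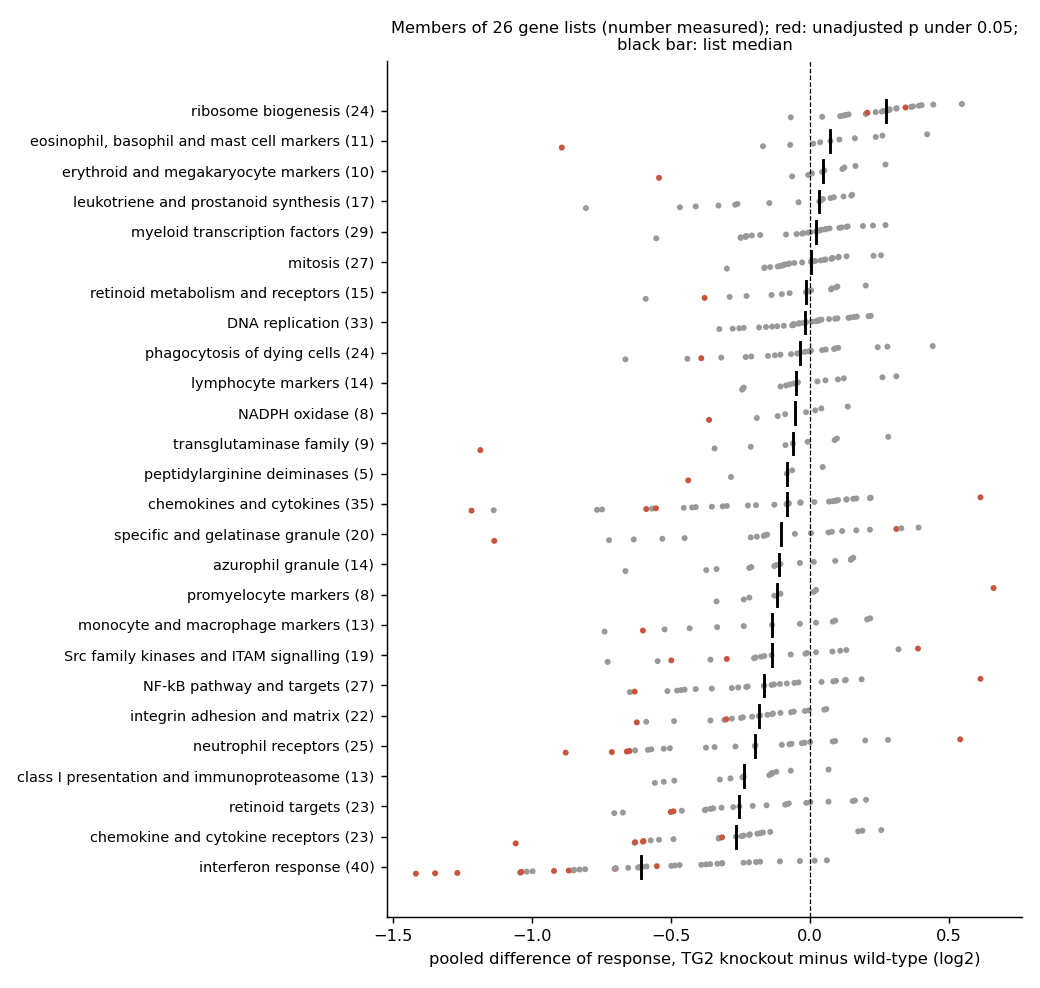
Pooled difference (knockout minus wild-type response, log2) of each measured member of 26 gene lists, with the number measured in parentheses. Red points have an unadjusted p under 0.05 and black bars are list medians. Interferon response genes have the lowest median (-0.61) and ribosome biogenesis genes the highest (0.27), and no point is a called gene.

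Ribosome biogenesis factors formed the only list on the high side with nearly all members: 23 of 24 were above 0, against 54.5% of all probe sets, with a median of 0.27. ATRA lowered most of them, by a median of -0.75 in wild-type and -0.57 in knockout cells, with 20 and 16 called lower (22.7% and 21.8% of all probe sets). NPM1 (nucleophosmin), given by the brightest of its 4 single-gene probe sets, was at 0.21 ± 0.07 (SE). DKC1 (dyskerin) was at 0.35 ± 0.14, and both had an unadjusted p under 0.05. NPM1 did not fall but rose, by 0.15 in wild-type and 0.36 in knockout cells. DKC1 had responses of -0.24 in wild-type and 0.10 in knockout cells, the latter not called. RRS1, a partner of RPF2, had the highest value at 0.55 ± 0.30. The array medians overlapped, from -1.01 to -0.32 in wild-type and from -0.78 to -0.38 in knockout arrays. Wild-type 48 h replicate 1, among the arrays nearest the untreated ones, gave the -0.32.

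**Figure D5:**
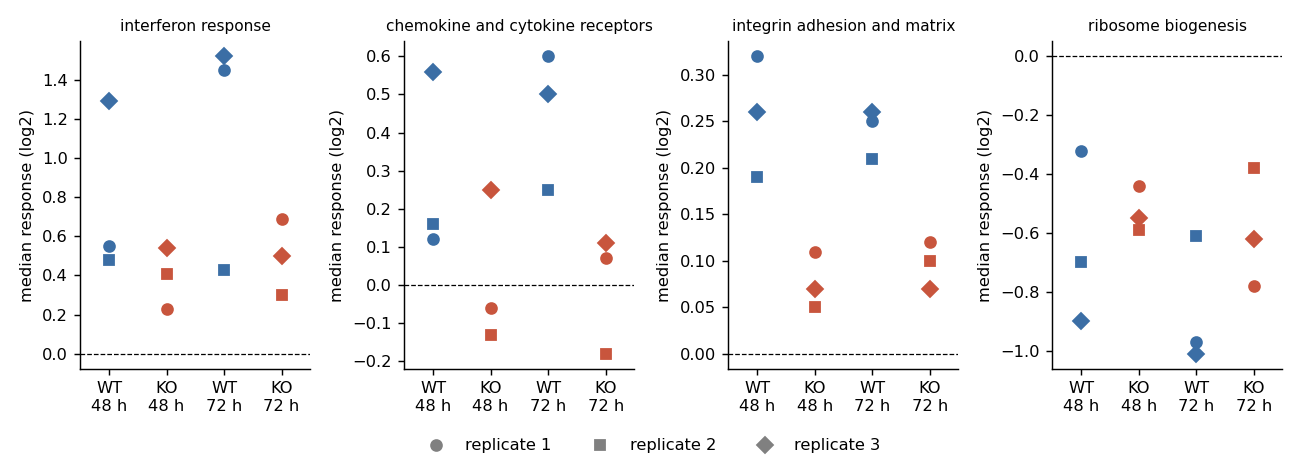
Median response (log2, each ATRA array minus the untreated mean of its genotype) of 4 gene lists in every ATRA array, wild-type (WT, blue) and TG2 knockout (KO, red), with symbols for the replicate number. Integrin adhesion genes separate the genotypes (0.19 to 0.32 against 0.05 to 0.12), while the other 3 lists overlap, and 3 wild-type arrays carry the high interferon values (1.29 to 1.52).

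Antigen presentation genes of class I had 12 of 13 members below 0 (median -0.24), against 45.1% of all probe sets. ERAP2 was at -0.56 and TAP1, the peptide transporter, at -0.49. No member of the list had an unadjusted p under 0.05. In the NF-kB list 20 of 27 were below 0 (median -0.16), against the same 45.1%. TNIP1, an inhibitor of the pathway, was at -0.63, and CCL2, a chemokine for monocytes, was at 0.62. CCL2 started lower in the knockout arrays (8.53 to 8.63 against 9.50 to 9.61, a difference of -0.98 that was not called). It was at -0.36 relative to wild-type under ATRA, where the arrays overlapped. Granule genes were mixed. Of the specific and gelatinase granule list 11 of 20 were below 0, with MMP8 (neutrophil collagenase) at -1.14 ± 0.37 (SE), and of the azurophil list 9 of 14, with a median of -0.11 and none below an unadjusted p of 0.05. Subunits of the NADPH oxidase, which makes the neutrophil's superoxide, had a median of -0.05, with CYBA (p22phox) at -0.36. PADI4, which citrullinates histones in neutrophils, was at -0.44, and CSK, a kinase that restrains Src kinases, at -0.30. Genes for the clearance of dying cells had a median of -0.03, with the bridging protein MFGE8 at -0.39.

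Lists of the cell cycle and of lineage control were centred on 0. The median was 0.01 over 27 mitosis genes, -0.02 over 33 DNA replication genes and 0.02 over 29 myeloid transcription factors, and no member of these had an unadjusted p under 0.05. ATRA lowered the mitosis genes by a median of -0.74 in wild-type and -0.67 in knockout cells, with 20 of 27 called lower in each (22.7% and 21.8% of all probe sets). Leukotriene and prostanoid genes had a median of 0.04, and Src and ITAM signalling genes of -0.14. The marker lists gave medians of -0.14 for monocytes and macrophages, -0.12 for promyelocytes, -0.05 for lymphocytes, 0.05 for erythroid cells and megakaryocytes, and 0.08 for eosinophils, basophils and mast cells. Within them MS4A3, a promyelocyte marker that ATRA lowered, was at 0.66 and CLC, an eosinophil and basophil protein, at -0.89. MS4A3 fell by 3.56 in wild-type cells and fell by 2.90 in knockout cells.

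The same comparison was made at each time. At 48 h alone limma called 1 probe set (0.003%), with 960 at an unadjusted p under 0.05 (2.88%). At 72 h alone it called 0 probe sets, with 1553 at an unadjusted p under 0.05 (4.66%) and a smallest adjusted p of 0.0964. Fitted without the other time's arrays, 48 h gave 2 calls and 72 h gave 3, and 4 of these 5 were not called in the pooled comparison (adjusted p = 1 in limma). None of the 5 has a gene in the annotation. The change of the genotype difference from 48 h to 72 h was called at 0 probe sets in limma, with 2001 at an unadjusted p under 0.05 (6.01%). None of the 24 genes chosen by smallest p had an unadjusted p under 0.05 for that change. Outside the 24, CXCR2 changed by 0.52 (unadjusted p = 0.0147 in limma) and MS4A3 by 0.61 (unadjusted p = 0.0462 in limma). Probe set 7958377 changed by -1 (unadjusted p = 0.0053 in limma). Pooling narrowed the error, with a median SE of 0.23 against 0.26 at each single time. Without the 4 arrays nearest the untreated ones, which leaves knockout 48 h with 1 array, these counts moved to 22 for the pooled difference, 351 at 48 h and 1386 for the change between times.

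Compared directly under ATRA, with no untreated arrays in the contrast, knockout and wild-type cells differed at 123 probe sets (0.369%), 50 higher (0.15%) and 73 lower (0.219%) in the knockout. Of these, 120 had a pooled difference of the same sign, 97 of them with an unadjusted p under 0.05, and 1 was called. The median size was 0.60 under ATRA and 0.47 in the pooled difference, which uses the same ATRA arrays. Before treatment, 2 probe sets in all were called (0.00601%), and both were among the 123. The direct contrast uses the means of 12 arrays (median SE 0.13), and the pooled difference also uses the 6 untreated arrays (median SE 0.23). Both SEs come from 1 spread per probe set, estimated over all 18 arrays. Untreated arrays varied less, with a median SD of 0.08 and 0.10 against 0.215 to 0.243 under ATRA. A shared spread can make the direct SE too small and the pooled SE too large. The 2 counts of calls are therefore not on equal terms. The count under ATRA moved with the processing and with single arrays. It was 39 with array weights per group, 186 after quantile normalization, 208 among probe sets of 1 gene, 543 with a replicate block within time and 862 without the 4 arrays nearest the untreated ones. Without replicate 1 of every group it was 2, without replicate 2 it was 78 and without replicate 3 it was 0. It was 54 without wild-type 48 h replicate 3, between 67 and 72 without untreated wild-type replicate 1 or 2, untreated knockout replicate 2, knockout 48 h replicate 1 or wild-type 72 h replicate 1, 219 without wild-type 48 h replicate 1, 286 without knockout 48 h replicate 2 and 334 without wild-type 72 h replicate 2. With 48 h arrays alone it was 8 and with 72 h arrays alone 354.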

How the data were processed

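RNA from 18 NB4 samples was labelled and hybridised to whole-transcript Affymetrix arrays, per the labels' protocols. The values analysed are the authors' deposited log2 signals, 1 per probe set and array. The log2 scale was read from the values, which have 2 decimals and run from 0.73 to 13.56, and no source used here gives their background correction, normalization or probe set summary. They were analysed as deposited.

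Probe sets were named through the platform annotation: 19460 have 1 gene, 1754 several and 12083 none, and 19429 of the 19460 matched a current RefSeq entry. Different probe sets of a gene were kept apart, and the brightest was described. limma 3.58.1 in R 4.3.3 fitted 1 mean per group over all 18 arrays (lmFit, eBayes with a mean-variance trend, no replicate block), with the Benjamini-Hochberg method over 33297 probe sets and a call at an adjusted p-value under 0.05. Array responses subtract the untreated mean of the array's genotype. Genes were named by a rule: TGM2, the 12 single-gene probe sets of smallest unadjusted p in each direction, and from each list the 2 members of smallest p, since none was called. The choice of 12 took 1 probe set a gene. It passed over symbols that mark unnamed genes, noncoding RNAs, ribosomal proteins, mitochondrial genes and immunoglobulin or T cell receptor segments. LGALS3BP, IFI6 and BST2 promoters, SLCO3A1, CCL2, and further list members were chosen after their values were seen. The comparison, its members and the gene lists were chosen with earlier results of these data known. The fit was tested on simulated data. Promoters are RefSeq's for GRCh38.p14. Alternatives covered normalization, filters, the spread model, replicate blocks, times and left-out arrays. Leaving out the 4 arrays nearest the untreated ones is a description, since the response chose them.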

Additional observations from a re-analysis of the deposited data

Results flagged for a closer look

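Probe set 7958377, which has no gene in the annotation, was singled out because its response to ATRA differed between the genotypes by the limma test of the difference itself. The difference, knockout minus wild-type on the log2 scale, was 2.37 with both times pooled and 2.87 at 48 h. Both values rest on the same 6 untreated arrays. Its signal is dim in every group, and none of its values lies above 4.20.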

How the results depend on the processing

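Alternatives were run one at a time. The pooled difference was called at 1 probe set, at 2 after quantile normalization, at 9 with array weights per group, at 2 with 48 h arrays only, at 3 with 72 h arrays only, and at 0 among brighter probe sets or probe sets of 1 gene, which leave out the dim unannotated one. At 48 h the count of 1 became 0 for brighter probe sets, for probe sets of 1 gene and with the replicate block within time. At 72 h it was 0, and 1 with that block. With the replicate block over all arrays the pooled count was 1, as it was within time, though probe set 7958377 then had an adjusted p of 0.0819 in limma, so the call was probe set 7905028 (-1.24). The count under ATRA, 123, was 169 with the block over all arrays and 543 within time. Same-numbered arrays correlated above 0.1 in 5 of the 6 ATRA pairs and in none of the untreated pairs, and unlike-numbered arrays in 0, so the data hint at pairing under ATRA only. Not every pair passed, and the numbers were not taken as pairs. Without the 4 ATRA arrays nearest the untreated ones, chosen by the response itself, the counts were 22 pooled, 351 at 48 h and 1386 for the change between times, and the share with a smaller knockout response was 48.7%. That share was 63.7% for brighter probe sets, 65.2% for probe sets of 1 gene and 54.5% with 48 h arrays only. The TGM2 difference was -1.19 with array weights and -1.27 without the 4 arrays, called in both. Leaving out arrays or replicate numbers in turn gave 0 to 1 calls pooled, 0 to 2 at 48 h, 0 to 1 at 72 h, 0 to 1 for the change between times, and a share of 51.2 to 69.2%. The pooled call was lost without wild-type untreated replicate 1. LGALS3BP was called in 3 alternatives (quantile normalization, array weights, without the 4 arrays), and RAB27B, RPF2 and POR with array weights only. None of the 24 genes turned its direction. The cause of these shifts was not tested. Quantile normalization moved the median difference of all probe sets from 0.02 to -0.0044.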
